A study of Ovis aries with 20 samples.

Results

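The receptors of the BMP, TGF-beta and activin ligands were followed across the follicle wall of adult sheep. The 10 members were taken by gene name from a table of 28524 genes, and all 10 were found and passed the filter on low values in every comparison. They comprise the type I receptors BMPR1A, BMPR1B, ACVR1, TGFBR1 and ACVR1B, the type II receptors BMPR2, TGFBR2, ACVR2A and ACVR2B, and the co-receptor TGFBR3. Prenatal T sheep were born to ewes injected in the muscle with 100 mg of testosterone propionate (1.2 mg/kg) 2 times per week between days 30 and 90 of gestation. Control sheep were born to ewes given vehicle over the same days. All ovaries came from offspring aged 21 months whose estrus had been synchronized with 2 injections of 10 mg prostaglandin F2α, given 11 days apart, and were taken 18 h after the second. From frozen ovary sections of 14 µm, the granulosa and theca layers of multiple follicles with an antrum were cut out and pooled per sheep, so each library is a pool of follicles of 1 animal. Total RNA was sequenced from 5 prenatal T granulosa, 4 control granulosa, 5 prenatal T theca and 5 control theca libraries, which together held 9 animals with both layers. Granulosa cells of control sheep 139 were not analysed here.

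A ligand of this family binds a complex of type I and type II serine/threonine kinase receptors, and the type II receptor then phosphorylates the type I receptor. The type I receptor decides which SMAD proteins are phosphorylated: BMP type I receptors act mainly on SMAD1, SMAD5 and SMAD9, and TGF-beta and activin type I receptors on SMAD2 and SMAD3. In the ovary, BMP15 and GDF9 from the oocyte, activin, inhibin and AMH from granulosa cells and BMPs from theca cells signal through these receptors in the control of follicle growth, steroid synthesis and, in sheep, ovulation rate.

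Values are normalized counts, that is, read counts divided by a size factor for each library, and rest on 12.7 to 26.0 M reads per library. They depend on transcript length, so levels are compared between libraries and not between genes. Prenatal T granulosa libraries held 12.7 to 16.1 M reads (median 13.85) and control granulosa libraries 13.6 to 26.0 M (median 19.87). In theca they held 14.1 to 15.6 M in prenatal T and 14.3 to 18.1 M in control sheep. The part of depth in the treatment differences was not tested. In bulk RNA, fewer cells of a type cannot be told apart from less RNA per cell. Sheep numbers order the values below: 210, 230, 276, 315 and then 209 for prenatal T sheep, and 224, 244, 246 and 268 for controls, preceded by 139 in theca. Prenatal T sheep 209 stood apart from the other animals in both layers. FSHR and CYP17A1, defining markers of granulosa cells and of steroid-making theca cells, were at 0 in both of its libraries, and the epithelial keratin KRT19 stood at 34371 in its granulosa library against 12.8 to 416 in the other 8. The 6 immune markers summed to 13066 in its granulosa and 15440 in its theca library, against at most 1878 and 2020 in other animals. Some markers lay within the range of the other animals, such as SERPINE2 (23198 against 15173 to 53977) and the epithelial MSLN (44.9 against 30.9 to 144) in granulosa. So did DCN in theca (22083 against 12033 to 23294). Without this animal the labelled layers fitted their markers, with 8 of 9 granulosa markers higher and 11 of 11 theca markers lower in granulosa cells. The differences of the receptors between layers and between treatments are therefore given with and without sheep 209. Theca libraries also held granulosa markers. Without sheep 209 the 9 granulosa markers summed to 15166 to 28858 in prenatal T theca and 14961 to 21220 in control theca. The sums were 61300 to 121959 in prenatal T granulosa and 44968 to 111201 in control granulosa cells. The part of granulosa RNA in the theca values of the receptors was not tested.

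The comparison of layers asks which receptors separate granulosa from theca cells, and most of the 10 did. In the comparison of granulosa with theca cells of the same animals, 8 of the 10 receptors passed the test (limma with the animal as a block, adjusted p under 0.05 over all genes), 4 higher and 4 lower in granulosa cells. Over all 16169 genes tested 56.7% passed, 28.8% as higher and 27.8% as lower in granulosa cells, and against that background 8 of 10 is not read as particular to the receptors. TGFBR2, ACVR1, TGFBR3 and BMPR1A were lower in granulosa cells, by 4.70-fold, 2.31-fold, 1.86-fold and 1.42-fold. ACVR2B, BMPR1B, ACVR1B and BMPR2 were higher there, by 1.61-fold, 1.46-fold, 1.38-fold and 1.23-fold. The median over the receptors was a log2 difference of 0.073 (granulosa minus theca), against 0.028 over all genes. Without sheep 209, 9 of 10 receptors passed, against 62.8% of all genes, and the medians were 0.16 over the receptors and 0.024 over all genes.

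**Figure D1:**
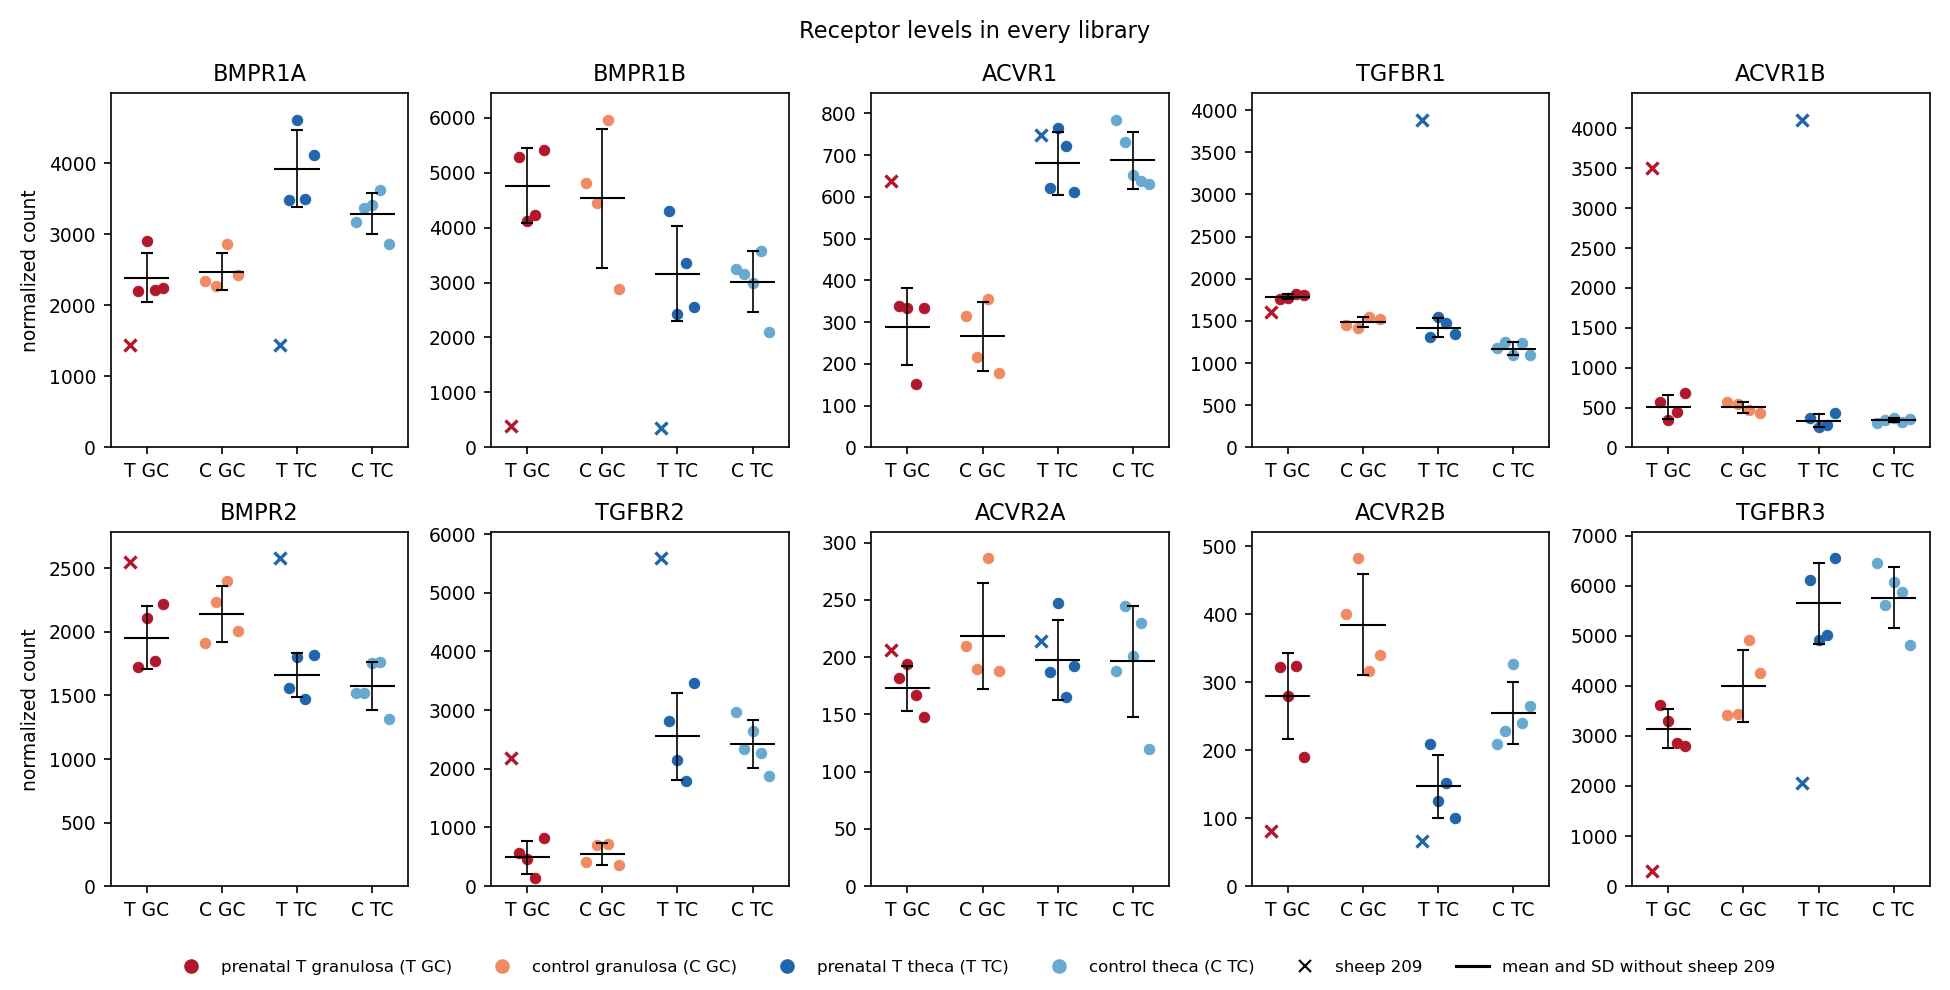
Normalized count of each receptor in every library, one panel per receptor, with prenatal T granulosa (T GC), control granulosa (C GC), prenatal T theca (T TC) and control theca (C TC) from left to right. Points are libraries, crosses are sheep 209, and lines with bars are the mean and SD without sheep 209. Apart from sheep 209, TGFBR2 and ACVR1 lie lower in every granulosa library than in any theca library, and TGFBR1 lies higher in prenatal T than in control libraries of the same layer.

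Among the type I receptors for BMPs, BMPR1A and BMPR1B differed between the layers in opposite directions. BMPR1A, which binds BMP2 and BMP4 among others, stood at 2196, 2903, 2219.9, 2240.4 and 1443 in prenatal T granulosa cells, against 2345, 2264, 2859 and 2425 in control granulosa cells. In theca it stood at 3483, 4609, 3489, 4111 and 1446 in prenatal T sheep, against 3173, 3373, 3412, 3625 and 2855 in control sheep. Granulosa cells were below the theca cells of the same animal in 9 of 9 sheep, although sheep 209 had nearly equal levels in both layers and control granulosa reached into the range of control theca. The log2 difference was -0.51 ± 0.083 (SE, adjusted p = 0.000343), and -0.57 ± 0.067 without sheep 209.

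BMPR1B, the receptor mutated in the highly prolific Booroola sheep, ran the other way. Its granulosa values were 5283, 4119, 4237, 5412 and 382 in prenatal T sheep, against 4809, 4454, 5962 and 2889 in controls. Its theca values were 4299.7, 2422, 3346, 2562 and 359 in prenatal T sheep, against 3246, 3149.9, 2997, 3573 and 2095 in controls. Granulosa was higher in 9 of 9 animals, at 106 to 211% of the animal's own theca, or 123 to 211% without sheep 209. The ranges of the layers overlapped because animals differed in both. Between the layers the log2 difference was 0.55 ± 0.090 (adjusted p = 0.000339), and 0.61 ± 0.079 without sheep 209. Since these differences were opposite, the ratio of BMPR1B to BMPR1A counts without sheep 209 lay at 1.42 to 2.42 in prenatal T granulosa and 1.19 to 2.09 in control granulosa cells. In theca it lay at 0.525 to 1.23 in prenatal T and 0.734 to 1.02 in control sheep. The size of these ratios depends on the lengths of both transcripts, and the shift between layers does not.

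ACVR1, a type I receptor used by BMP6 and BMP7 and in AMH signalling, had one of the clearest layer differences. It stood at 338, 334, 151, 334 and 639 in prenatal T granulosa cells, against 314, 216, 356 and 179 in control granulosa cells. Its theca values were 622, 766, 723, 612 and 749 in prenatal T sheep, against 785, 732, 652, 638 and 631 in control sheep. Apart from sheep 209, every granulosa library was below every theca library, as for 11.2% of all genes in that direction. The log2 difference was -1.21 ± 0.18 (adjusted p = 0.000144), and -1.33 ± 0.15 without sheep 209.

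TGFBR1, the type I receptor of TGF-beta that also serves GDF9, stood at 1756, 1775, 1814, 1810.5 and 1609 in prenatal T granulosa cells, against 1455, 1414, 1547 and 1517 in control granulosa cells. In theca it stood at 1308, 1546, 1476, 1350.5 and 3886 in prenatal T sheep, against 1184, 1246, 1096, 1243 and 1093 in control sheep. Granulosa was the higher layer in 8 of 9 animals, and sheep 209 had 41.4% of its theca level in granulosa cells. With all animals the log2 difference of 0.16 ± 0.16 did not pass (adjusted p = 0.407). Without sheep 209 it was 0.34 ± 0.048 and passed (adjusted p = 5.93e-05), as it did in control animals alone (0.34, adjusted p = 0.00611). The order of TGFBR1 levels without sheep 209 was prenatal T granulosa, control granulosa, prenatal T theca and control theca, and of neighbours in this order only control granulosa and prenatal T theca overlapped.

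ACVR1B, the type I receptor of activin, stood at 573, 339.9, 440.1, 686 and 3498 in prenatal T granulosa cells, against 572, 547, 467 and 428 in control granulosa cells. Theca libraries held 375, 256, 277, 432 and 4108 in prenatal T sheep, against 303, 348, 373, 325 and 359.8 in control sheep. Granulosa cells had more than theca in 8 of 9 animals, all but sheep 209. The layers differed by a log2 of 0.46 ± 0.095 (adjusted p = 0.0016), and 0.55 ± 0.069 without sheep 209.

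Of the type II receptors, TGFBR2 differed most between the layers. TGFBR2, the type II receptor of TGF-beta, stood at 558, 458, 139.8, 818 and 2180.5 in prenatal T granulosa cells, against 413, 706, 723 and 359 in control granulosa cells. In theca it stood at 2811, 2142, 1798, 3466 and 5585 in prenatal T sheep, against 2971, 2344, 2643, 2265 and 1876 in control sheep. The layers did not overlap without sheep 209, whose granulosa level lay inside the theca range of the other animals. The log2 difference was -2.23 ± 0.19 (adjusted p = 2.68e-06), the largest in size among the 10 receptors, and -2.34 ± 0.17 without sheep 209. TGFBR2 in granulosa cells came to 7.78 to 39.0% of the level in the animal's own theca (median 21.4%), and ACVR1 to 20.9 to 85.3% (median 43.6%). Without sheep 209 these ranges were 7.78 to 31.9% (median 20.6%) and 20.9 to 55.7% (median 43.2%). The 11 theca markers came to a median of 6.45 to 14.3% of the own theca in prenatal T granulosa libraries and 10.1 to 19.1% in control ones, and the part of theca RNA in the granulosa values of these receptors was not tested. Because TGFBR1 and TGFBR2 differed in opposite directions, the ratio of TGFBR2 to TGFBR1 counts without sheep 209 was 0.0771 to 0.452 in prenatal T granulosa and 0.237 to 0.499 in control granulosa cells. In theca it was 1.22 to 2.57 in prenatal T and 1.72 to 2.51 in control sheep.

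BMPR2, the type II receptor through which BMP15 and GDF9 act, stood at 1723, 2111, 1771, 2217 and 2552 in prenatal T granulosa cells, against 1910.3, 2239, 2397 and 2011 in control granulosa cells. The theca values were 1555, 1803, 1468, 1815 and 2577 in prenatal T sheep, against 1517, 1522, 1751, 1764 and 1317 in control sheep. Granulosa cells had the higher level in 8 of 9 animals, and in sheep 209 the layers were nearly equal. Their log2 difference was 0.29 ± 0.061 (adjusted p = 0.0017), the smallest in size among those that passed, and 0.33 ± 0.054 without sheep 209.

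ACVR2B, a type II receptor of activin that inhibin also binds, stood at 323, 280.2, 324, 189 and 80.5 in prenatal T granulosa cells, against 400.2, 482, 316 and 339.7 in control granulosa cells. In theca it stood at 209.2, 126, 152, 100.1 and 65.8 in prenatal T sheep, against 209.4, 228, 327, 240.2 and 265 in control sheep. Granulosa cells were higher in 9 of 9 animals, at 122 to 223% of the animal's own theca, or 128 to 223% without sheep 209. The log2 difference was 0.69 ± 0.11 (adjusted p = 0.000299), and 0.74 ± 0.11 without sheep 209. ACVR2A, the other type II receptor of activin, ranged from 148 to 206 in prenatal T granulosa and 188 to 286 in control granulosa cells. It ranged from 165 to 247 in prenatal T theca and 119.6 to 245 in control theca. Its layers overlapped throughout, granulosa was the higher layer in 3 of 9 animals, and its log2 difference of -0.014 ± 0.11 did not pass (adjusted p = 0.927), nor did that of -0.0092 ± 0.12 without sheep 209 (adjusted p = 0.954).

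TGFBR3, also called betaglycan, is a co-receptor that presents TGF-beta 2 to its receptors and lets inhibin oppose activin. It stood at 3619, 3302, 2856, 2799 and 306 in prenatal T granulosa cells, against 3421, 3428, 4908 and 4252 in control granulosa cells. Its levels in theca were 6112, 4915, 5016, 6542 and 2057 in prenatal T sheep, against 6445, 5610.4, 6062, 5874 and 4819 in control sheep. Granulosa cells were below theca in 9 of 9 animals, by the widest margin in sheep 209, where granulosa had 14.9% of the theca level against 42.8 to 88.2% elsewhere. By limma the log2 difference was -0.90 ± 0.22 with all animals (adjusted p = 0.00413) and -0.67 ± 0.099 without sheep 209.

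**Figure D2:**
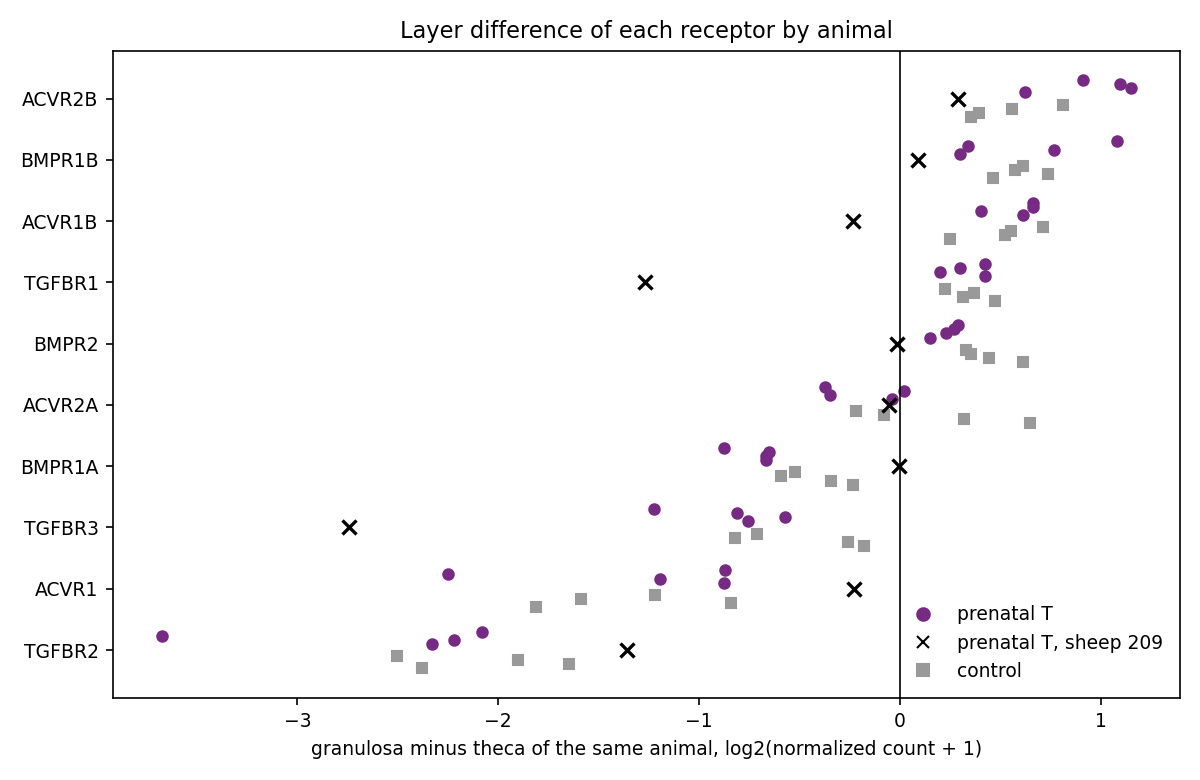
Granulosa minus theca of the same animal on the log2(normalized count + 1) scale, with receptors ordered by their median and 1 mark per animal (circles prenatal T, cross prenatal T sheep 209, squares control). TGFBR2, ACVR1, TGFBR3 and BMPR1A lie left of 0 in 9 of 9 animals and BMPR1B and ACVR2B right of 0 in 9 of 9. The crosses of sheep 209 lie outside the range of the other animals for every receptor but ACVR2A, farthest for TGFBR1 and TGFBR3.

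The animal as a block mattered for these calls. Without it, 4 of 10 receptors passed with all libraries (TGFBR2, ACVR1, BMPR1A and ACVR2B), beside 5352 of 16169 genes. The adjusted p was then 0.436 for BMPR1B, 0.504 for ACVR1B, 0.0553 for BMPR2 and 0.085 for TGFBR3. Without sheep 209, 9 of 10 passed with or without the block, beside 10000 and 8027 of 15923 genes. In prenatal T animals alone 6 of 10 passed, beside 5158 of 15271 genes, with BMPR2 (adjusted p = 0.0996) and ACVR1B (adjusted p = 0.0718) lost there. Without sheep 209, 9 of 10 passed in prenatal T animals alone, beside 7304 of 14712 genes. In control animals alone 9 of 10 passed, beside 6995 of 14746 genes.

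Other genes of the pathway also separated the layers. Their counts stand beside the shares over all genes, of which 28.8% were higher and 27.8% lower in granulosa cells (56.7% called), and the lists were not tested against those shares. Of 7 other receptors and co-receptors tested, 5 were lower and 1 higher in granulosa cells. The lower ones included the endothelial TGF-beta co-receptor ENG (log2 -2.57 ± 0.12, adjusted p = 8.77e-08), the endothelial type I receptor ACVRL1 (-2.10 ± 0.12, adjusted p = 2.54e-07) and the pseudoreceptor BAMBI (-1.27 ± 0.16, adjusted p = 5.38e-05). The higher one was AMHR2, the type II receptor of AMH (1.45 ± 0.18, adjusted p = 5.35e-05). The 8 endothelial markers were all lower in granulosa cells without sheep 209, with a sum of 1564 to 3975 in prenatal T granulosa and 2186.5 to 4162 in control granulosa cells, against 11524 to 18351 in prenatal T theca and 12664 to 19873 in control theca. The part of endothelial RNA in the layer differences was not tested.

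Of 17 ligands tested, 10 were lower and 5 higher in granulosa cells. TGFB3 (-2.22 ± 0.24, adjusted p = 1.92e-05) and BMP6 (-2.54 ± 0.29, adjusted p = 2.45e-05) were lower. AMH (2.29 ± 0.26, adjusted p = 2.23e-05, or 2.58 ± 0.091 without sheep 209) and INHA, the inhibin alpha subunit (2.28 ± 0.27, adjusted p = 3.24e-05), were higher. The other 3 higher ligands, named here after their values were seen, were INHBB (1.78 ± 0.58, adjusted p = 0.0218), BMP15 (3.70 ± 0.69, adjusted p = 0.000845) and GDF9 (1.46 ± 0.33, adjusted p = 0.00263). AMH, INHA and INHBB are also among the granulosa markers used to check the layers, and BMP15 and GDF9 are among the oocyte markers. Without sheep 209 all 5 oocyte markers tested were higher in granulosa cells. The 8 oocyte markers then summed to 79.3 to 380.1 in prenatal T granulosa and 24.3 to 571 in control granulosa cells, against 12.5 to 36.3 in prenatal T theca and 19.5 to 40.2 in control theca. The part of oocyte RNA in the layer differences was not tested.

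Of 8 SMADs tested, 4 were lower and 2 higher in granulosa cells. SMAD1, SMAD5 and SMAD9, which carry BMP signals, were lower, with log2 differences of -0.56 ± 0.13 (adjusted p = 0.00391), -0.34 ± 0.056 (adjusted p = 0.000398) and -1.46 ± 0.33 (adjusted p = 0.00287). SMAD2, which carries TGF-beta and activin signals, was higher (1.23 ± 0.17, adjusted p = 8.36e-05). SMAD3, which carries the same signals and is named here after its value was seen, did not pass (0.21 ± 0.090, adjusted p = 0.066). Of 13 extracellular inhibitors and latency proteins 6 were lower, led by LTBP4 (-4.15 ± 0.22, adjusted p = 1.25e-07), with NBL1, a BMP antagonist entered as LOC101108197 (-1.61 ± 0.12, adjusted p = 1.06e-06), and LTBP1 (-1.26 ± 0.21, adjusted p = 0.000428). The activin-binding protein FST was among the 3 higher ones (2.23 ± 0.32, adjusted p = 0.000131). LTBP1 and LTBP4 bind latent TGF-beta in the extracellular matrix.

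Of 12 intracellular regulators, 7 were lower and 2 higher in granulosa cells. PMEPA1, which dampens TGF-beta signals (-1.64 ± 0.19, adjusted p = 3.05e-05), FKBP1A, which binds type I receptors and holds them inactive (-0.68 ± 0.091, adjusted p = 7.73e-05), and the SMAD co-repressor SKI (-0.35 ± 0.049, adjusted p = 0.000113) were lower. The co-repressor TGIF2 was higher (0.82 ± 0.12, adjusted p = 0.000114). Of 10 transcriptional targets, 4 were lower and 0 higher. They were ID1 (-1.05 ± 0.10, adjusted p = 6.95e-06), TGFBI (-1.65 ± 0.30, adjusted p = 0.000756), ID4 (-0.82 ± 0.20, adjusted p = 0.00434) and HEY1 (-1.14 ± 0.32, adjusted p = 0.00971), of which the ID genes respond to BMP and TGFBI to TGF-beta. The median log2 differences were -1.07 for the other receptors, -1.06 for ligands, -0.23 for SMADs, -0.57 for extracellular inhibitors, -0.24 for intracellular regulators and -0.42 for targets. The median over all genes was 0.028. Without sheep 209 each pathway gene named above by its p passed in the same direction, and the counts of lower and higher genes were 5 and 1 for the other receptors, 10 and 6 for ligands, 4 and 2 for SMADs, 6 and 4 for extracellular inhibitors, 8 and 2 for intracellular regulators and 5 and 2 for targets. With all libraries but without the animal as a block, AMH, INHA, SMAD1, SMAD5, FST, TGIF2 and TGFBI did not pass (adjusted p = 0.0807 to 0.296). In prenatal T animals alone, sheep 209 among them, SMAD1, SMAD9, ID4 and HEY1 did not pass (adjusted p = 0.0553 to 0.145).

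**Figure D3:**
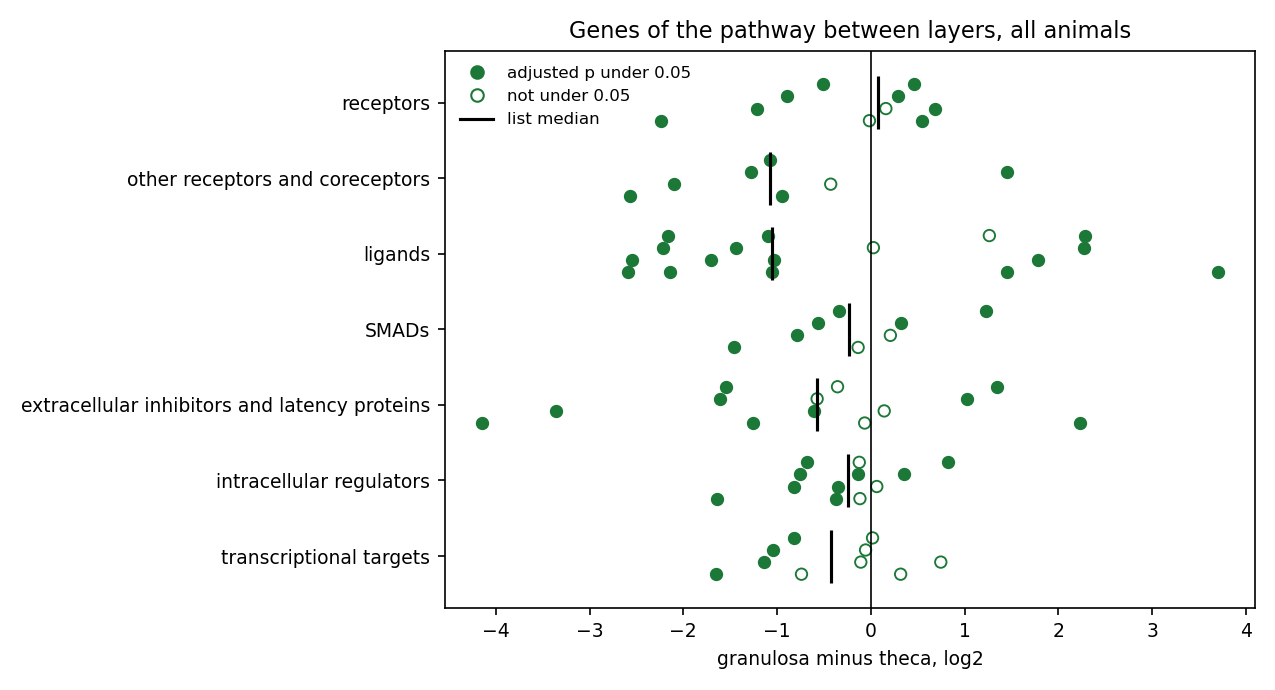
Log2 difference of granulosa minus theca for each tested gene of the receptors and of 6 lists of other pathway genes, all animals, with filled circles for an adjusted p under 0.05 and a bar at the median of each list. The receptors lie on both sides of 0, with 4 filled circles on each side, and the other lists have more filled circles left of 0 than right of it.

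The comparison of prenatal T with control sheep asks whether exposure to testosterone before birth goes with another level of these receptors in the adult follicle. In granulosa cells 0 of 10 receptors passed, as did 0% of the 14724 genes tested by limma, where 622 genes had an unadjusted p under 0.05. In theca 0 of 10 passed, as did 0% of 15492 genes, where 1192 had an unadjusted p under 0.05. DESeq2 called 16 genes in granulosa and 7 in theca, and edgeR called 0 in both, with 835 and 1561 genes at an unadjusted p under 0.05. Under each of these tools, with or without sheep 209, the receptors called numbered 0. The receptors with the smallest p were TGFBR1, ACVR2B and TGFBR3 in granulosa and ACVR2B, TGFBR1 and BMPR2 in theca, and their values are those given for each layer above.

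TGFBR1 was the receptor whose treatment groups did not overlap in either layer. In granulosa cells its mean without sheep 209 was 1789 ± 28.1 in prenatal T sheep (SD, n = 4) and 1483 ± 59.9 in control sheep (SD, n = 4). In theca the means were 1420.3 ± 110.0 in prenatal T sheep (SD, n = 4) and 1172 ± 75.4 in control sheep (SD, n = 5). With all libraries too, the lowest prenatal T library lay above the highest control library in both layers, which held in this direction for 0.72% of genes in granulosa, 1.28% in theca and 0.0973% in both. Without sheep 209 these shares were 1.15%, 2.53% and 0.212%. The log2 difference in granulosa was 0.24 ± 0.090 with all libraries, at an unadjusted p of 0.0247 and an adjusted p of 0.875 by limma. Without sheep 209 it was 0.27 ± 0.081, with an adjusted p of 0.704. In theca it was 0.57 ± 0.27 with all libraries (adjusted p = 0.644 by limma), and 0.28 ± 0.094 without sheep 209 (adjusted p = 0.371), since the theca library of that animal held 3886. The smallest adjusted p of TGFBR1 under any setting was 0.0603, by DESeq2 in granulosa cells without sheep 209. The layers come from the same animals, so their agreement is not that of independent samples.

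The level of theca markers in the granulosa libraries, relative to the own theca, also differed in value between the treatments. Without sheep 209 the median theca marker stood at 6.45 to 9.39% of the own theca in prenatal T granulosa libraries and at 10.1 to 19.1% in control ones, without overlap. The summed 11 theca markers were 20327 to 39873 in prenatal T and 33443 to 80625 in control granulosa libraries, and in theca 577343 to 704421 in prenatal T and 638251 to 871388 in control libraries. The part of this difference in the granulosa results was not tested.

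ACVR2B had lower values in prenatal T sheep in both layers, without overlap in theca, as for 0.981% of genes in that direction, or 2.08% without sheep 209. Its theca mean was 147 ± 46.7 without sheep 209 in prenatal T sheep (SD, n = 4) and 254 ± 45.7 in control sheep (SD, n = 5). The gap between the groups was narrow, since prenatal T sheep 210 with 209.2 (196 reads) and control sheep 139 with 209.4 (198 reads) differed by less than counting error. The log2 difference in theca was -1.04 ± 0.29, at an unadjusted p of 0.00419 and an adjusted p of 0.644 by limma, and -0.82 ± 0.22 without sheep 209 (adjusted p = 0.371). In granulosa cells it was -0.82 ± 0.41 (adjusted p = 0.875), and -0.47 ± 0.21 without sheep 209 (adjusted p = 0.719). There prenatal T sheep overlapped the control sheep, with 324 in sheep 276 against 316 in control sheep 246. The ratio of ACVR2B to ACVR2A counts in theca without sheep 209 was 0.508 to 1.12 in prenatal T sheep and 0.931 to 2.22 in control sheep.

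**Figure D4:**
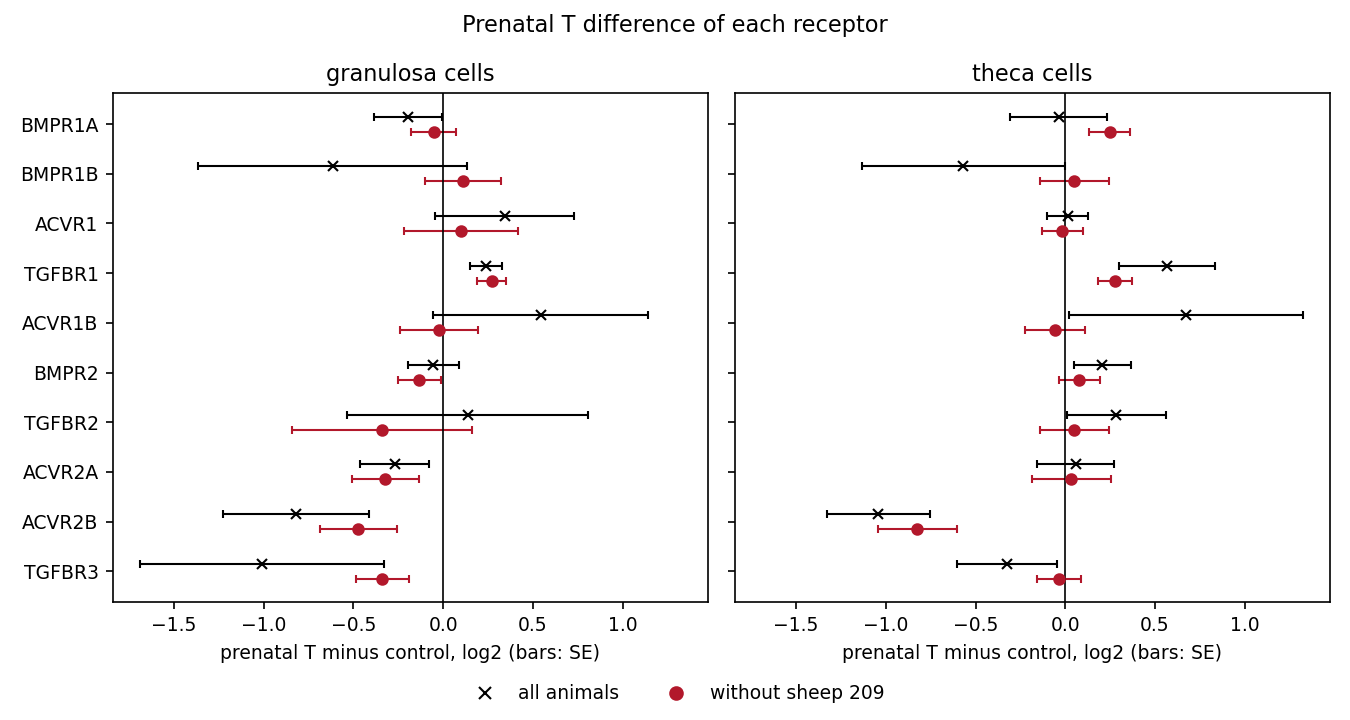
Log2 difference of prenatal T minus control for each receptor in granulosa (left) and theca cells (right), as the limma estimate with its SE, with crosses for all animals and circles without sheep 209. The circles of TGFBR1 lie at 0.27 and 0.28 in the layers and those of ACVR2B at -0.47 and -0.82, and the crosses of BMPR1B, ACVR1B and TGFBR3 lie away from their circles with wide bars.

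For several other receptors the difference with all libraries rested on sheep 209. TGFBR3 in granulosa cells was at -1.01 ± 0.68 with all libraries, and at -0.34 ± 0.15 without that sheep, with an adjusted p of 0.712 by limma and an overlap of the groups. BMPR1B in granulosa was at -0.62 ± 0.75, and at 0.11 ± 0.21 without sheep 209, and in theca at -0.57 ± 0.57 and 0.052 ± 0.19. ACVR1B was at 0.54 ± 0.60 in granulosa and 0.67 ± 0.65 in theca, and at -0.022 ± 0.22 and -0.056 ± 0.17 without that sheep. TGFBR2 in granulosa was at 0.14 ± 0.67, and at -0.34 ± 0.50 without it. BMPR2 in theca was at 0.21 ± 0.16, and at 0.079 ± 0.12 without it. In theca TGFBR2 was at 0.28 ± 0.28 and TGFBR3 at -0.32 ± 0.28, and without sheep 209 they were at 0.050 ± 0.19 and -0.034 ± 0.12, while BMPR1A in theca was at -0.036 ± 0.27 and 0.25 ± 0.11. In granulosa cells BMPR1A was at -0.20 ± 0.19, BMPR2 at -0.054 ± 0.14, ACVR1 at 0.34 ± 0.39 and ACVR2A at -0.27 ± 0.19, and without sheep 209 they were at -0.054 ± 0.12, -0.13 ± 0.12, 0.10 ± 0.32 and -0.32 ± 0.19. ACVR1 in theca was at 0.013 ± 0.11, and at -0.016 ± 0.12 without that sheep, and ACVR2A in theca at 0.059 ± 0.21 and 0.034 ± 0.22, with an overlap of the treatment groups. The median over the receptors was -0.13 in granulosa and 0.036 in theca, against -0.015 and 0.00015 over all genes. Without sheep 209 it was -0.093 in granulosa and 0.042 in theca, against -0.013 in both over all genes.

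The test of the difference between the effects in the layers, which pairs the layers of an animal, passed for 0 of 10 receptors and for 0% of 16169 genes by limma, where 755 genes had an unadjusted p under 0.05. By DESeq2 20 genes passed and by edgeR 0, with 791 at an unadjusted p under 0.05. The smallest p among receptors was that of BMPR2, whose effect was lower in granulosa than in theca by a log2 difference of -0.25 ± 0.10 (unadjusted p of 0.0342, adjusted p = 0.96 by limma). Without sheep 209 it was -0.20 ± 0.093, and the smallest p was that of BMPR1A, at -0.29 ± 0.10 (adjusted p = 0.536). TGFBR1 had a difference of -0.0086 ± 0.096 without sheep 209 and ACVR2B one of 0.42 ± 0.18 (adjusted p = 0.578).

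Among the other pathway genes 0 passed by limma in either layer or in the difference of effects. In granulosa cells the smallest p of each list belonged to ACVR1C (-1.41 ± 0.66), TGFB2 (0.61 ± 0.46), SMAD7 (0.72 ± 0.79), LTBP4 (-0.87 ± 0.32), LDLRAD4 (-1.40 ± 0.38) and ATOH8 (-1.84 ± 0.85), with an adjusted p of 0.875 to 0.877 by limma. LDLRAD4 keeps SMADs from activated type I receptors, and ATOH8 is a target of BMP signals. Without sheep 209 LDLRAD4 was at -1.08 ± 0.21 and ATOH8 at -1.03 ± 0.28, with an adjusted p of 0.704 for both. DESeq2 without sheep 209 called LDLRAD4 in granulosa cells (adjusted p = 0.0101) and in the difference of effects (adjusted p = 0.00247). ATOH8 stood at 74.5 to 141 in prenatal T granulosa cells without sheep 209 and at 156 to 282 in control ones. The share of all genes with such a gap in that direction is not given here, so the gap is not read as particular to ATOH8.

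In theca the genes of smallest p were ACVR1C (-0.89 ± 0.81), GDF5 (-1.52 ± 0.97), SMAD9 (-0.46 ± 0.22), LTBP3 (-0.30 ± 0.17), USP15 (0.49 ± 0.17) and again ATOH8 (-0.78 ± 0.33), with an adjusted p of 0.644 to 0.758 by limma. USP15 removes ubiquitin from TGFBR1 and from SMADs. For the difference of the effects they were RGMA (-0.73 ± 0.33), GDF10 (2.82 ± 1.18), SMAD5 (-0.23 ± 0.094), LTBP1 (-0.71 ± 0.39), LDLRAD4 (-1.22 ± 0.28) and JUNB (0.63 ± 0.31). Their adjusted p was 0.96 by limma, and without sheep 209 that of LDLRAD4 was 0.308. GDF10 was near the floor, at 0 to 15.1 in prenatal T granulosa and 0 to 2.21 in control granulosa cells. ACVR1C was low too, at 1.15 to 16.7 in prenatal T granulosa and 10.1 to 17.8 in control granulosa cells. Few reads limit the precision of both.

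Sheep 209 lay far from the other animals for several receptors. Its BMPR1B stood 12.1-fold below the median of the other animals in granulosa cells and 8.77-fold below it in theca, and its TGFBR3 11.2-fold and 2.86-fold below. Its ACVR1B stood 6.90-fold above that median in granulosa and 11.8-fold above it in theca, and its TGFBR2 4.29-fold and 2.38-fold above. ACVR2B was 4.02-fold and 3.18-fold below. ACVR2A lay within the range of the other animals in both layers, TGFBR1 within it in granulosa alone, and ACVR1 within it in theca alone. Its libraries held FSHR and CYP17A1 at 0, and KRT19 at 34371 in granulosa and 9626 in theca, against 12.8 to 416 and 3.74 to 93.1 in the other animals. Its summed immune markers lay above those of the other animals in both layers, while some markers, such as SERPINE2 in granulosa, lay within their range. The part of these cell type differences in its receptor values was not tested.

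The genes most like each receptor were taken by Pearson r of log2 values over the 17 libraries without sheep 209. These libraries mix 2 layers, share animals, and genes that separate the layers are alike for that reason. TGFBR2 was most like ZCCHC24 and ARAP3 (both r = 0.98), ACVR1 most like LPAR1 and RBMS3 (both r = 0.98), and BMPR1A most like TAF7 (r = 0.96) and TMOD3 (r = 0.96). For TGFBR3 they were GJC3 and THSD7A (both r = 0.96), for ACVR2B RNF214 (r = 0.96) and ZFHX2 (r = 0.93), and for TGFBR1 ORC2 and CTNNB1 (both r = 0.95). For BMPR1B they were FAM124A (r = 0.92) and UBE2D1 (r = 0.91), for ACVR1B FAM184B and SBNO2 (both r = 0.90), for BMPR2 GPBP1 and DUSP16 (both r = 0.89), and for ACVR2A TPT1_1 (r = 0.81) and TMEM60 (r = 0.80). Over all 19 libraries several of these fell apart, such as TMOD3 (r = 0.042) and ORC2 (r = 0.14), while TAF7 (r = 0.97) and ARAP3 (r = 0.96) did not.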

How the data were processed

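The authors deposited 1 table of normalized counts, a signal per gene obtained as the read count over the library's size factor. The submitters' processing notes name FastQC 0.11.5, MultiQC 0.9, STAR 2.6.0c, Subread 1.6.1 with featureCounts, and DESeq2. The genome build and the use of strand in counting are not given in the sources used here. Coordinates and sequences were therefore left out. Whole reads were recovered, since 100% of values in every library were multiples of a single step (relative tolerance 1e-06). The table has 0 columns of values without a sample. In the RefSeq annotation of ARS-UI_Ramb_v3.0, small RNA genes overlap BMPR1A and TGFBR2, with values of at most 1.18.

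Tests were run with limma 3.58.1 in R 4.3.3 on log2(value + 1) with a trended variance, for genes that reached a value of 10 in 5 or more libraries. Differences are on that scale and understate changes of low genes. All tests were two-sided, and Benjamini-Hochberg adjustment covered all genes tested, at a threshold of 0.05. Prenatal T was set against control within each layer. The layers, and the difference of effects, were compared with the animal as a block. The labels give both layers of a sheep its number. Across genes, deviations from group means correlated at r = 0.42 to 0.80 between an animal's layers, above any other pairing for 9 of 9 animals. Counting error alone would understate the error, so the SD and SE between animals are given.

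The alternatives were edgeR 4.0.16 (quasi-likelihood) and DESeq2 1.42.0 on recovered reads, TMM scaling, pseudocounts of 0.5 and 10, no filter on low values, the animal as a block or not, each treatment alone, and leaving out each animal. Those that combine the absence of sheep 209 with another choice were chosen after seeing the data. The tests were checked on simulated counts, drawn with no effect of the animal and with a spread estimated without sheep 209. No result above rests on that check. The 10 receptors are named throughout. From each of 6 lists of other pathway genes up to 4 passing genes of smallest p are named, or 1 where none passes, and the 2 genes most like each receptor are named too. The receptors and lists were chosen with earlier results of these data known.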

Additional observations from a re-analysis of the deposited data

Results flagged for a closer look

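Of 40 sets of values (10 receptors in 4 groups), 6 held a library far from the others of its group by Dixon's criterion, and each of these libraries was from prenatal T sheep 209. Chance gives such a gap in about 1 in 20 groups, and the libraries of 1 animal are not independent. In granulosa cells BMPR1B stood at 382 in sheep 209, against 4119 to 5412 in the other prenatal T sheep. TGFBR3 stood at 306, against 2799 to 3619, and ACVR1B at 3498, against 339.9 to 686. TGFBR1 in that library, at 1609, was the lowest of its group, where the other 4 lay within 1756 to 1814, yet it was above all control granulosa libraries. In theca ACVR1B stood at 4108, against 256 to 432, and TGFBR1 at 3886, against 1308 to 1546. In the other 9 animals 0 receptor values were flagged. Each prenatal T set was tested with sheep 209 in it, whose values can widen the range and hide another library. In prenatal T granulosa, for example, ACVR1 stood at 151 in sheep 276, against 338, 334 and 334 in sheep 210, 230 and 315. BMPR1A there stood at 2903 in sheep 230, against 2196, 2219.9 and 2240.4 in sheep 210, 276 and 315. The sets were not tested without sheep 209.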

How the results depend on the processing

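The number of receptors called was 0 in every prenatal T comparison under all alternatives run. Between layers it was 8 or 9 under all alternatives except the fit with no replicate block, which called 4, and prenatal T animals alone, which called 6. Without sheep 209 each of these fits called 9. Over all genes, DESeq2 called 16 in granulosa, 7 in theca and 20 for the difference of effects, where limma called 0. The animal as a replicate block called 1 gene in granulosa, and 3 without sheep 209, against 0 in each fit without the block, and it called no receptor. In theca and for the difference of effects 0 genes passed by limma with or without the block, with all animals or without sheep 209. Between layers 5352 genes were called with no replicate block and 5158 in prenatal T animals alone, against 9161. Without sheep 209 these calls numbered 8027 and 7304, against 10000. When single animals were left out, including sheep 209 with another tool, the calls ranged from 0 to 32 in granulosa, from 0 to 58 in theca and from 0 to 31 for the difference, each maximum by DESeq2 without sheep 209. The cause was not tested.

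Some log2 values that had passed no test changed sign. BMPR1A in theca was 0.057 by edgeR and 0.065 by DESeq2. ACVR2A between layers was 0.0099 with TMM scaling, 0.0094 by edgeR and 0.17 in control animals alone. Ranges over left-out animals crossed 0 in granulosa for BMPR1B (-0.85 to 0.14), BMPR2 (-0.13 to 0.0092), TGFBR2 (-0.38 to 0.65) and ACVR1B (-0.022 to 0.82). In theca they did so for BMPR1A (-0.17 to 0.27), BMPR1B (-0.84 to 0.074), ACVR1 (-0.024 to 0.062), ACVR1B (-0.056 to 0.94), ACVR2A (-0.11 to 0.15) and ACVR1C (-1.03 to 0.17). For the difference of effects they did so for BMPR1B (-0.22 to 0.059), TGFBR1 (-0.43 to 0.025), TGFBR2 (-0.47 to 0.11) and ACVR1B (-0.17 to 0.11), and between layers for ACVR2A (-0.18 to 0.031). TGFBR1 (0.22 to 0.30 in granulosa, 0.28 to 0.67 in theca) and ACVR2B (-0.97 to -0.43 in granulosa, -1.24 to -0.78 in theca) kept their sign. Few reads limit the precision of ACVR2A, with 125 to 396 in a library, and of ACVR2B, with 52 to 720.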
